A study of Homo sapiens with 6 samples.

Results

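The genes described here are 8 cyclin, kinase and partner genes that are not tied to a single phase of the cell cycle, chosen by name from the 84 genes of a qPCR array: CDK7, CCNH and MNAT1, CDK8 and CCNC, CCNT1, and CDK5R1 and CDK5RAP1. Their mRNA was measured in HMC-1.2 cells, a human neoplastic mast cell line that carries the KIT mutations D816V and V560G according to the sample labels. Cells were treated for 24 h with 50 µM SPHK2-I (the sphingosine kinase 2 inhibitor ABC294640), with 5 µM SPHK1-I (the sphingosine kinase 1 inhibitor SKI-178) or with 0.1% DMSO as vehicle, with 2 samples in each group. The comparison asked how level and stability of these genes under each inhibitor compared with those of phase-linked cyclins and kinases on the same array. The doses of the inhibitors differed. The labels call the samples duplicates without saying whether they were grown separately, so the p-values reflect only the spread within these pairs of samples.

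CDK7, cyclin H (CCNH) and the assembly factor MAT1 (MNAT1) form the CDK-activating kinase. This complex phosphorylates the activation loop of the kinases that drive the cell cycle and, as part of the transcription factor TFIIH, the tail of RNA polymerase II. CDK8 and cyclin C (CCNC) belong to the kinase module of Mediator, which links transcription factors to the polymerase, and cyclin T1 (CCNT1) is the partner of CDK9 in P-TEFb, which releases paused polymerase into elongation. CDK5R1 encodes p35, the activator of CDK5 best known from neurons, and CDK5RAP1 encodes a protein that binds p35 and modifies mitochondrial tRNA. The protein levels of cyclins A, B and E rise and fall through the cycle, whereas those of CDK7, cyclin H and MAT1 are known to stay rather even.

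Levels are given as a percentage of a reference made from B2M, GAPDH, HPRT1 and RPLP0, that is 100 times 2 to the power of minus ΔCt. Ct is the threshold cycle, a log2 measure in which a later cycle means less mRNA, and no Ct in the data was above 35. SPHK1-I sample 2 stood apart, with a mean reference Ct of 24.3 against 22.1 to 22.7 in the other 5 samples and with 37 of the 84 genes above a Ct of 30 against 9 to 13. The changes of the 8 genes with SPHK1-I are therefore also given without it. The positive PCR control lay between 21.4 and 21.7 and the reverse transcription control between 24.1 and 24.4 in all 6 samples. None of 8 mast cell markers looked for was on the array, so the labelled cell type could not be checked.

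The promoters of CDK7 and MNAT1 and of CCNH and CCNC are shown because in each of these pairs either gene had the other as its nearest profile among the 84 genes over the 6 samples (log2 differences of 0.10 and 0.12, as described with the profiles). That measure does not show that the genes of a pair vary together. The promoter windows were handled as follows. The promoters are RefSeq windows of 300 bases on GRCh38.p14, with 250 bases before the start and 50 after it, taken from the first entry of each gene. They lie at chr5:69234636-69234935, plus strand for CDK7, chr14:60734511-60734810, plus strand for MNAT1, chr5:87412881-87413180, minus strand for CCNH and chr6:99568765-99569064, minus strand for CCNC. Capitals mark matches on either strand to any of 8 motifs searched, namely the cell cycle homology forms TTTGAA or else TTCGAA, the E2F-like TTTNNCGC, the CCAAT box, the ETS-type CCGGAAGT, the GC box GGGCGG, the E-box CACGTG and the TATA-type TATAAA.
CDK7: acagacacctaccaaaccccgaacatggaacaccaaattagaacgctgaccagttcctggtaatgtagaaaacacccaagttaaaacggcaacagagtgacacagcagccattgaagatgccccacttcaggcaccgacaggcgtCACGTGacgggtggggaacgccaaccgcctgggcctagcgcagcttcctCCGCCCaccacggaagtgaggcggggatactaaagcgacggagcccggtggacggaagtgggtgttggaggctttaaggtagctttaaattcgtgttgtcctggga
MNAT1: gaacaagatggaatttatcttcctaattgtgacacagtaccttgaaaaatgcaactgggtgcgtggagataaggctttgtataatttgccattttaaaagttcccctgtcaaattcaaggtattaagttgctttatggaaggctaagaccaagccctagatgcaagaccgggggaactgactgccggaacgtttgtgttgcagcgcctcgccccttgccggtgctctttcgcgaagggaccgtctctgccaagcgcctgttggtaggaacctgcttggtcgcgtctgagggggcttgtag
CCNH: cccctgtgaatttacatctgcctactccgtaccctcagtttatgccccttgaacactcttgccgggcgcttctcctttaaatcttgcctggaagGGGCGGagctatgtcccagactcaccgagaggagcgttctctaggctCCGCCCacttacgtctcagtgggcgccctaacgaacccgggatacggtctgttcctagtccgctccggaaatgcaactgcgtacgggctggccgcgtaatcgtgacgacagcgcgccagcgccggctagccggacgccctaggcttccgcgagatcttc
CCNC: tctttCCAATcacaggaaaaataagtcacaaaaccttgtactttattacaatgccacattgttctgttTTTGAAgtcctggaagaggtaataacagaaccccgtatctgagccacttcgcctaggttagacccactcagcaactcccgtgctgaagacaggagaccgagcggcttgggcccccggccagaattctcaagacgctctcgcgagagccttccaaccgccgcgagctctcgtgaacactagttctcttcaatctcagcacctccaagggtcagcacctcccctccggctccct
In these windows CDK7 had a GC box (GGGCGG) and an E-box (CACGTG), CCNH had a pair of GC boxes, CCNC had TTTGAA and CCAAT, and MNAT1 had no match. Windows were found for all 8 genes, and no matches overlapped. GGGCGG was in 5 of the 8 (CDK7, CCNH, CDK8, CCNT1 and CDK5R1), against 75.0% of the 68 array genes with a window and 44.6% of 27305 promoters. CACGTG was in 3 (CDK7, CDK8 and CCNT1), against 17.6% of array genes and 7.43% of all promoters. CCAAT was in 3 (CCNC, CCNT1 and CDK5RAP1), against 50.0% and 35.7%. TTTGAA, a form of the cell cycle homology element, was in CCNC alone of the 8, against 20.6% of array genes and 15.4% of all promoters, and TTCGAA was in none of them, against 2.94% and 1.45%. The E2F-like TTTNNCGC was in CDK5RAP1 alone, against 22.1% and 6.90%, and CCGGAAGT in CCNT1 alone, against 7.35% and 4.44%. TATAAA was in CDK5RAP1 alone, the 1 array gene that had it, against 12% of all promoters. These matches describe letters in a window only, and the array does not measure binding.

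The 8 genes covered a wide range of levels. Averaged over the 6 samples, CCNH was at 3.76%, CCNC at 2.79%, CCNT1 at 2.78%, CDK7 at 2.58% and MNAT1 at 2.51% of the reference, near the array median of 2.91%. CDK8 was at 1.38%. CDK5RAP1, at 0.114%, and CDK5R1, at 0.0343% with its bounds described below taken as values, ranked 83 and 84 of the 84 genes. CCNC, CCNT1, CDK7 and MNAT1 overlapped in their ranges over the samples and had no fixed order. CCNH was above CCNC in 6 of 6 samples although their ranges overlapped, whereas MNAT1, CDK8, CDK5RAP1 and CDK5R1 followed each other with ranges fully apart. Levels of different genes also depend on the efficiency of each assay, which the files do not state.

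**Figure D1:**
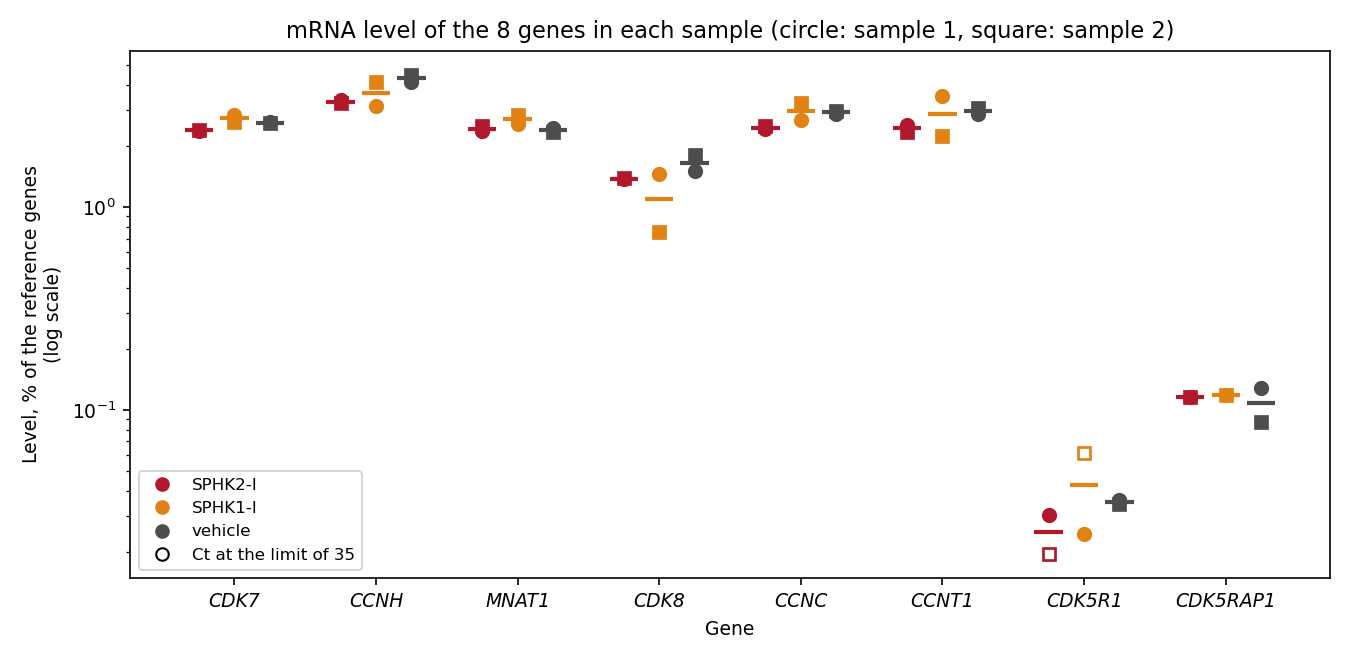
Level of each of the 8 genes (x axis) as a percentage of the 4 reference genes (y axis, log scale) in SPHK2-I, SPHK1-I and vehicle samples, with circles for sample 1, squares for sample 2, short lines for group means and open symbols for a Ct at the limit of 35. CDK7, CCNH, MNAT1, CCNC and CCNT1 lie between 2.25% and 4.50%, CDK8 below them, and CDK5RAP1 and CDK5R1 at or below 0.128%.

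CDK7, the catalytic subunit of the CDK-activating kinase, was at 2.37% and 2.41% in SPHK2-I samples, 2.85% and 2.63% in SPHK1-I samples and 2.62% and 2.61% in vehicle samples. The SPHK2-I samples were the lowest, but all 6 lay within 0.26 on the log2 scale, the second smallest range among the 84 genes. The change in −ΔCt, fitted with limma, was −0.13 with SPHK2-I (95% interval −0.48 to 0.22, adjusted p = 0.527) and 0.07 with SPHK1-I (−0.28 to 0.42, adjusted p = 0.738), both against vehicle. MNAT1, the assembly factor, had the third smallest range, 0.28. Without SPHK1-I sample 2 the range of CDK7 was 0.26 and ranked 8, and that of MNAT1 was 0.13, the smallest of the 84. It was at 2.37% and 2.50% in SPHK2-I samples, 2.56% and 2.85% in SPHK1-I samples and 2.45% and 2.34% in vehicle samples. The SPHK1-I samples were the highest. Its change was 0.02 with SPHK2-I (−0.34 to 0.39, adjusted p = 0.894) and 0.18 with SPHK1-I (−0.19 to 0.54, adjusted p = 0.402). Without SPHK1-I sample 2 the changes with SPHK1-I were 0.13 for CDK7 and 0.10 for MNAT1.

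CCNH, the cyclin of the same complex, was at 3.36% and 3.27% in SPHK2-I samples, 3.16% and 4.15% in SPHK1-I samples and 4.13% and 4.50% in vehicle samples. The SPHK2-I samples lay below both vehicle samples, whereas the SPHK1-I duplicates spanned most of the range. The change of CCNH was −0.38 with SPHK2-I (−0.81 to 0.05, adjusted p = 0.157) and −0.25 with SPHK1-I (−0.68 to 0.18, adjusted p = 0.306). The change with SPHK1-I was −0.45 without SPHK1-I sample 2 (adjusted p = 0.00546, from a limma fit with a common spread described below) and −0.05 without SPHK1-I sample 1. Within each sample, the ratio of MNAT1 to CDK7 stayed between 0.90 and 1.08. The ratio of CCNH to CDK7 was 1.41 and 1.36 in SPHK2-I samples, 1.11 and 1.58 in SPHK1-I samples and 1.57 and 1.73 in vehicle samples. These ratios do not depend on the reference genes, and the differences between groups in them were not tested.

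CDK8, the kinase of the Mediator module, was at 1.37% and 1.39% in SPHK2-I samples, 1.46% and 0.754% in SPHK1-I samples and 1.51% and 1.80% in vehicle samples. Both vehicle samples were the highest, and the low SPHK1-I value came from sample 2, where CDK8 had a Ct of 31.4. The change of CDK8 with SPHK1-I was −0.65 (−1.35 to 0.04, adjusted p = 0.125), but −0.18 without SPHK1-I sample 2 and −1.13 without SPHK1-I sample 1. With SPHK2-I it was −0.26 (−0.95 to 0.44, adjusted p = 0.527). Its partner CCNC was at 2.44% and 2.50% in SPHK2-I samples, 2.68% and 3.26% in SPHK1-I samples and 2.88% and 2.99% in vehicle samples, so that only the SPHK2-I samples were apart from vehicle. The change of CCNC was −0.25 with SPHK2-I (−0.64 to 0.14, adjusted p = 0.329) and 0.01 with SPHK1-I (−0.38 to 0.40, adjusted p = 0.956), or −0.13 without SPHK1-I sample 2. The ratio of CCNC to CDK8 was 1.77 and 1.81 in SPHK2-I samples, 1.84 and 4.32 in SPHK1-I samples and 1.91 and 1.66 in vehicle samples, with the outlying value again in SPHK1-I sample 2.

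CCNT1, the elongation cyclin, was at 2.54% and 2.36% in SPHK2-I samples, 3.52% and 2.25% in SPHK1-I samples and 2.89% and 3.10% in vehicle samples. The SPHK1-I duplicates were the highest and the lowest of the 6. The change of CCNT1 was −0.29 with SPHK2-I (−0.82 to 0.24, adjusted p = 0.359). With SPHK1-I it was −0.09 (−0.62 to 0.44, adjusted p = 0.763), and 0.23 without SPHK1-I sample 2.

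CDK5R1, encoding p35, was close to the end of the measured range. Its Ct was 34.4 and 35 in SPHK2-I samples, 34.5 and 35 in SPHK1-I samples and 33.7 and 33.6 in vehicle samples, and both values of 35 were at the limit, so they give only an upper bound on its level. Its level was 0.0303% and at most 0.0195% in SPHK2-I samples, 0.0243% and at most 0.0612% in SPHK1-I samples and 0.0360% and 0.0342% in vehicle samples. The measured inhibitor values lay below both vehicle values, but the bound in SPHK1-I sample 2 was above them and went with the late reference Ct of that sample. The change with SPHK2-I was −0.53 (−1.50 to 0.44, adjusted p = 0.359) and −0.21 with values at the limit left out. With SPHK1-I it was 0.14 (−0.83 to 1.11, adjusted p = 0.790) and turned to −0.53 (adjusted p = 0.102) with values at the limit left out, which is also its change without SPHK1-I sample 2. Its SD between duplicates rests on these bounds and was not ranked.

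CDK5RAP1, the p35-binding tRNA modifier, was at 0.116% in both SPHK2-I samples, 0.119% in both SPHK1-I samples, and 0.128% and 0.0874% in vehicle samples. Both inhibitor groups lay between the vehicle duplicates, and all Ct values were between 31.9 and 34.0. The change was 0.14 with SPHK2-I (−0.35 to 0.62, adjusted p = 0.636) and 0.17 with SPHK1-I (−0.31 to 0.65, adjusted p = 0.501), the same without SPHK1-I sample 2.

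**Figure D2:**
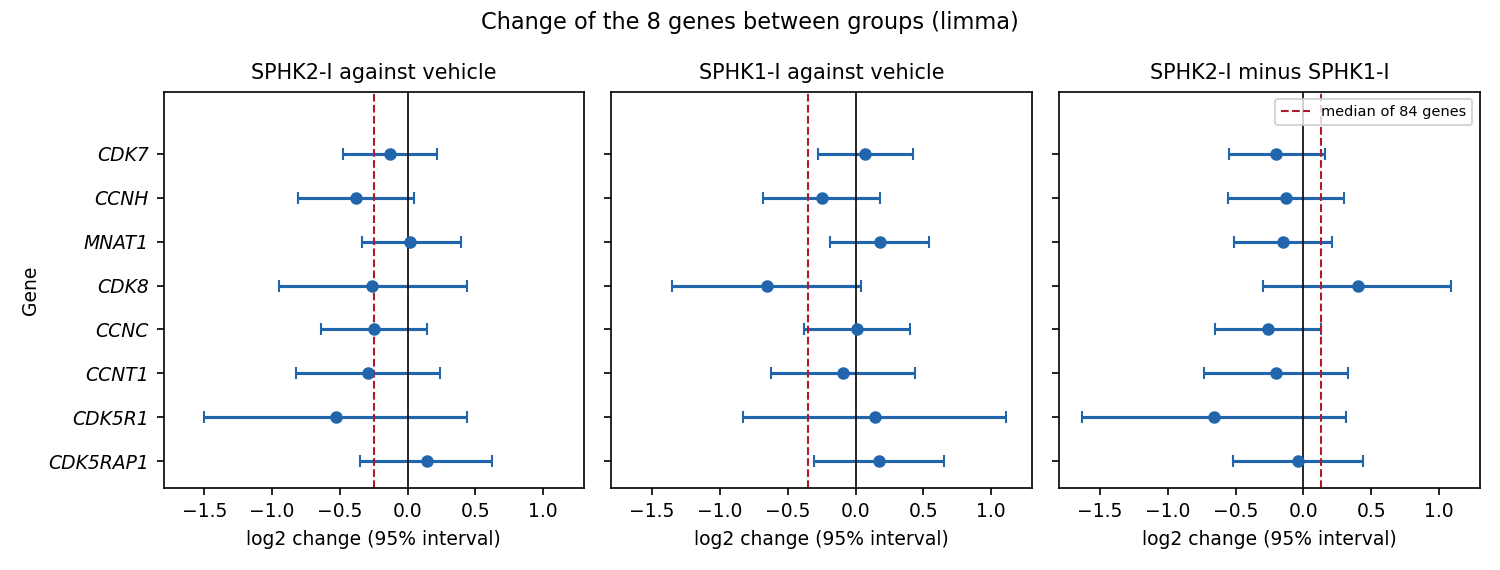
Change in −ΔCt (x axis, log2) of each of the 8 genes (y axis) with SPHK2-I and with SPHK1-I against vehicle and for SPHK2-I minus SPHK1-I, with points for limma estimates, bars for 95% intervals and a dashed line for the median of the 84 genes. All 24 intervals include 0, and those of CDK8 and CDK5R1 are the widest.

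None of the 8 genes passed an adjusted p of 0.05 in limma over the 84 genes, with SPHK2-I (28.6% of the 84 passed) or with SPHK1-I (35.7%). None had an unadjusted p below 0.05 either, against 40.5% of the 84 with SPHK2-I and 45.2% with SPHK1-I. The intervals still allow changes of some size. With SPHK2-I, the fold of CDK7 lay between 0.72 and 1.17 and that of CDK8 between 0.52 and 1.35. By the methods' t-test without adjustment, CDK7, CCNH and CCNC passed as lower with SPHK2-I (39.3% of the 84 passed as lower) and no member with SPHK1-I (25.0%). After Benjamini-Hochberg adjustment of that test no member passed, and of the 84 genes 1 passed with SPHK2-I (1.19%) and 0 with SPHK1-I. In a limma fit of only the SPHK2-I and vehicle samples, CCNH, CDK8, CCNT1 and CDK5R1 passed as lower (as did 50.0% of the 84). In that fit limma gave every gene the same spread, an SD of 0.118. The SD between duplicates of these 2 groups was 0.07 for CCNH and CCNT1, 0.13 for CDK8 and 0.32 for CDK5R1, the last with 1 value at the limit. The same common spread was used when either SPHK1-I sample was left out. These 4 genes then passed as lower with SPHK2-I as well (65.5% of the 84 passed in either direction). With SPHK1-I, CDK8 and CCNT1 passed as lower and CDK5R1, which had only a bound, as higher without sample 1 (76.2%), and CCNH and CDK5R1 as lower without sample 2 (53.6%).

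Counting only whether samples overlapped, CDK7, CCNH, CDK8, CCNC, CCNT1 and CDK5R1 were below both vehicle samples with SPHK2-I, 6 of 8 against 60.7% of the 84 genes. With SPHK1-I, CDK7 and MNAT1 lay above both vehicle samples and CDK8 below them, 3 of 8 against 69.0% in either direction. With 2 samples a group an exact permutation test cannot give a p below 0.333 for a single gene. The median change of the 8 genes was −0.25 with SPHK2-I, the same as the −0.25 of all 84, and 0.04 with SPHK1-I, against −0.35 for all 84. Without SPHK1-I sample 2 these medians with SPHK1-I were −0.02 and −0.18.

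Set directly against each other at these unmatched doses, SPHK2-I and SPHK1-I did not give a difference past the test for any of the 8 genes (limma, 31.0% of the 84 passed). None had an unadjusted p below 0.05, against 39.3% of the 84, and by the methods' t-test without adjustment only CDK5RAP1 passed, with a difference of −0.04 (10.7% of the 84 passed as lower). After adjustment of that test 0 of the 84 genes passed. CDK7, MNAT1, CCNC and CDK5RAP1 were lower in both SPHK2-I samples than in both SPHK1-I samples, 4 of 8 against 23.8% of the 84 genes. The differences of the 8 genes ran from −0.66 for CDK5R1 (−1.63 to 0.31, adjusted p = 0.301) to 0.40 for CDK8 (−0.30 to 1.09, adjusted p = 0.357), and both of these genes had their most deviant value in SPHK1-I sample 2. For CDK5R1 that value and 1 SPHK2-I value are bounds, and with values at the limit left out the difference turned to 0.32. Without that sample the difference was 0.00 for CDK5R1, −0.08 for CDK8 and 0.07 for CCNH (−0.13 with all samples), and CCNT1 passed as lower with SPHK2-I at −0.52 (adjusted p = 0.00112, limma with a common spread, 50.0% of the 84 passed). Without SPHK1-I sample 1, CCNH and CCNC passed as lower and CDK8 as higher (72.6% of the 84 passed). CDK5R1 also passed as lower there, but against a bound only.

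Several of the phase-linked genes on the same array passed the test. Of the 4 kinases that the CDK7 complex activates, CDK1 and CDK2, the kinases of mitosis and of S phase, fell with SPHK2-I by 1.13 and 0.82 on the log2 scale (adjusted p = 0.0116 and 0.0106, limma), while CDK6, a G1 kinase, rose by 0.80 (adjusted p = 0.0116). With SPHK1-I, CDK1, CDK2 and CDK4 fell and CDK6 rose by 1.90 (adjusted p = 0.000745). CDK6 was low, at 0.0884% and 0.0929% of the reference in vehicle samples, and had a mean Ct above 30. Of 8 phase-linked cyclins, 4 fell with SPHK2-I, among them the mitotic cyclin CCNB1 by 1.64 (adjusted p = 0.00687). With SPHK1-I 3 fell, among them the G1/S cyclin CCNE1 by 0.85 (adjusted p = 0.00729). None passed as higher, but CCND1 lay above both vehicle samples with SPHK2-I (0.42, adjusted p = 0.119) and with SPHK1-I (0.30, adjusted p = 0.234, limma). It passed as higher with SPHK2-I with all 5 housekeeping genes, the median of the 84 genes, or ACTB, GAPDH or HPRT1 alone as reference. With SPHK1-I it did so with ACTB or HPRT1 alone. With B2M alone its change was 0.00 with SPHK2-I and −0.31 with SPHK1-I. The change of CCND2 with SPHK2-I was 0.09 (adjusted p = 0.731, limma). It passed as higher with ACTB alone (0.64, adjusted p = 0.0119) or HPRT1 alone (0.60, adjusted p = 0.0259), and was −0.34 with B2M alone. The direction of each change called in these kinases and cyclins with the 4 reference genes was the same under every reference tried. In all, 7 of these 12 genes passed the test with each inhibitor, with a median change of −0.61 with SPHK2-I and −0.59 with SPHK1-I. Of all 84 genes 28.6% passed with SPHK2-I and 35.7% with SPHK1-I. Without SPHK1-I sample 2 the median change of the 12 genes with SPHK1-I was −0.48. The calls depended on reference, test and samples. Of the 7 genes called with SPHK2-I, 4 passed with ACTB alone as reference and 5 with HPRT1 alone. CDK2 and CCNB2 passed with neither. With SPHK1-I only CDK6 of the 12 passed with GAPDH or RPLP0 alone as reference, against 9.52% and 1.19% of the 84. By the methods' t-test after adjustment 0 of the 12 passed with either inhibitor. Of the 84 genes that test passed 1.19% with SPHK2-I and 0 with SPHK1-I. With SPHK2-I, 6 to 9 of the 12 passed under the references tried, against 20.2% to 67.9% of the 84. Fits without 1 vehicle or SPHK2-I sample leave 1 sample in that group and are described under the processing below.

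CCNG1 and CCNG2, cyclins that also have no fixed phase and are known for roles in stress and growth arrest, had a median range over the 6 samples of 1.71 on the log2 scale, against 0.53 for the 8 genes and 0.93 for all 84. Without SPHK1-I sample 2 these medians were 0.99, 0.45 and 0.68. CCNG2 was at 2.30% and 2.28% in SPHK2-I samples, 1.24% and 0.606% in SPHK1-I samples and 1.05% and 1.15% in vehicle samples. It rose with SPHK2-I by 1.06 (adjusted p = 0.0369), and its change with SPHK1-I was −0.34 (adjusted p = 0.406), but 0.18 without SPHK1-I sample 2. The change of CCNG1 with SPHK1-I was −0.42 and −0.10 without that sample. The difference between the inhibitors passed the test for CCNG2 at 1.40 (adjusted p = 0.0170) and for CCNG1 at 1.12 (adjusted p = 0.0141). It passed for neither gene with RPLP0 alone as reference (1.19 and 0.91, adjusted p = 0.202 for both, limma). Without SPHK1-I sample 2 it was 0.88 for CCNG2 and 0.80 for CCNG1, both past the test in a limma fit with a common spread, and without 1 SPHK2-I or vehicle sample neither passed.

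Stability was described by the SD of the 3 group means on the log2 scale, with a rank of 1 for the smallest of the 84. It was 0.09 for CDK5RAP1 (rank 5), 0.10 for MNAT1 and CDK7 (ranks 6 and 7), 0.15 for CCNC and CCNT1 (ranks 11 and 12) and 0.19 for CCNH (rank 17). CDK8, at 0.33, and CDK5R1, at 0.35 with bounds taken as values, were near the middle of the array at ranks 35 and 41. The median over the 8 genes was 0.15, against 0.47 over the 12 phase-linked cyclins and kinases and 0.36 over all 84. The level of these medians depended on the reference, and with B2M alone they were 0.39, 0.73 and 0.61. Over the references tried the median of the 8 genes lay between 0.13 and 0.39 and was the smallest of these 3 medians under each of them. The medians were closest with HPRT1 alone, at 0.26, 0.35 and 0.33 in the same order. With ACTB alone they were 0.24, 0.38 and 0.35. Duplicates were not closer in the 8 genes, with a median SD between duplicates of 0.20, against 0.14 in the phase-linked genes and 0.19 in all 84. For CDK5RAP1, CCNT1 and CDK8, the SD between duplicates, 0.22, 0.27 and 0.40, was larger than that between groups. The same held for CDK5R1, at 0.60 with bounds taken as values. Without SPHK1-I sample 2 the median over the 8 genes was 0.13, against 0.44 over the phase-linked genes.

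**Figure D3:**
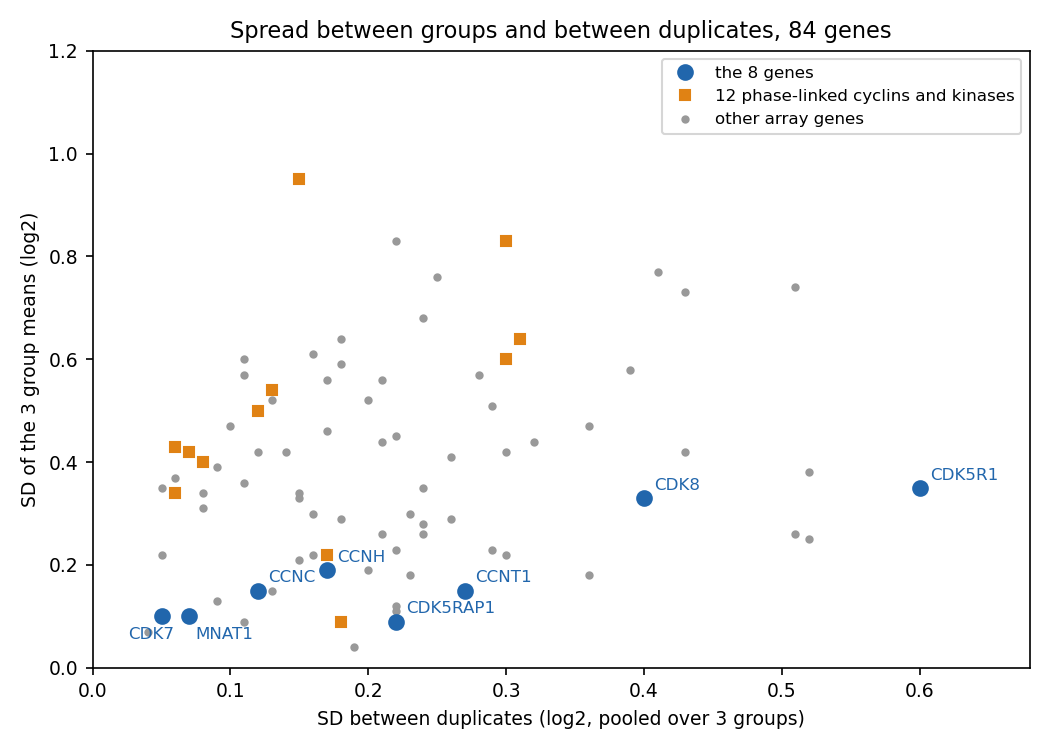
SD between duplicates (x axis, log2, pooled over the 3 groups) and SD of the 3 group means (y axis, log2) for the 8 genes (circles), 12 phase-linked cyclins and kinases (squares) and the other array genes (dots). CDK7 and MNAT1 sit near the lower left corner at 0.10 on the y axis, and CDK5R1, with 2 values that are bounds, at the far right.

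Similarity of profiles was measured as the root mean square difference of −ΔCt over the 6 samples after centring each gene on its mean. Among the other 83 genes the nearest to CDK7 was MNAT1, and the reverse, at 0.10, and CCNH and CCNC were likewise nearest to each other at 0.12. The nearest to CDK5RAP1 was MNAT1 at 0.16. CDK8 was nearest to ATM (0.10), which was also at its lowest in SPHK1-I sample 2 (0.136%), and CCNT1 to MDM2 (0.12). CDK8 was far from its partner CCNC, at 0.48. Outside the 8 genes, CDK7 was nearest to CDKN1B (0.11), MNAT1 to ANAPC2 (0.12), CCNC to CKS2 (0.16), CDK5RAP1 to CDC34 (0.18) and CCNH to CUL3 (0.19). CDK5R1, with bounds taken as values, was nearest to CKS2 (0.33). These values describe 6 samples that share their reference genes. Profiles were not scaled, so genes that vary little come out near each other whatever their pattern. The SD over the 6 samples was 0.10 for both CDK7 and MNAT1, as large as their difference. It was 0.22 for CCNH and 0.16 for CCNC. Whether the genes of a pair vary together was not tested.

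The direction of small changes depended on the reference. B2M differed from vehicle by 0.42 with SPHK2-I and 0.61 with SPHK1-I relative to the mean of the 4 reference genes, and HPRT1 by −0.52 and −0.35. With B2M alone as reference the change of CDK7 was −0.55 with SPHK2-I and −0.54 with SPHK1-I, and with HPRT1 alone it was 0.39 and 0.42. With B2M alone, 6 of the 8 genes passed the limma test as lower with SPHK2-I (all but MNAT1 and CDK5RAP1, with 66.7% of the 84 lower) and 5 with SPHK1-I (all but MNAT1, CDK5R1 and CDK5RAP1, with 79.8% lower), and CDK8 passed as higher in the difference (33.3% of the 84 higher). With HPRT1 alone, MNAT1 and CDK5RAP1 passed as higher with SPHK2-I (29.8% of the 84 higher), and with ACTB alone CDK8 passed as higher in the difference (40.5% of the 84 higher). Over all the references tried, CDK8 with SPHK1-I stayed below 0 (−1.26 to −0.30), whereas every one of the 8 genes had both signs with SPHK2-I.

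**Figure D4:**
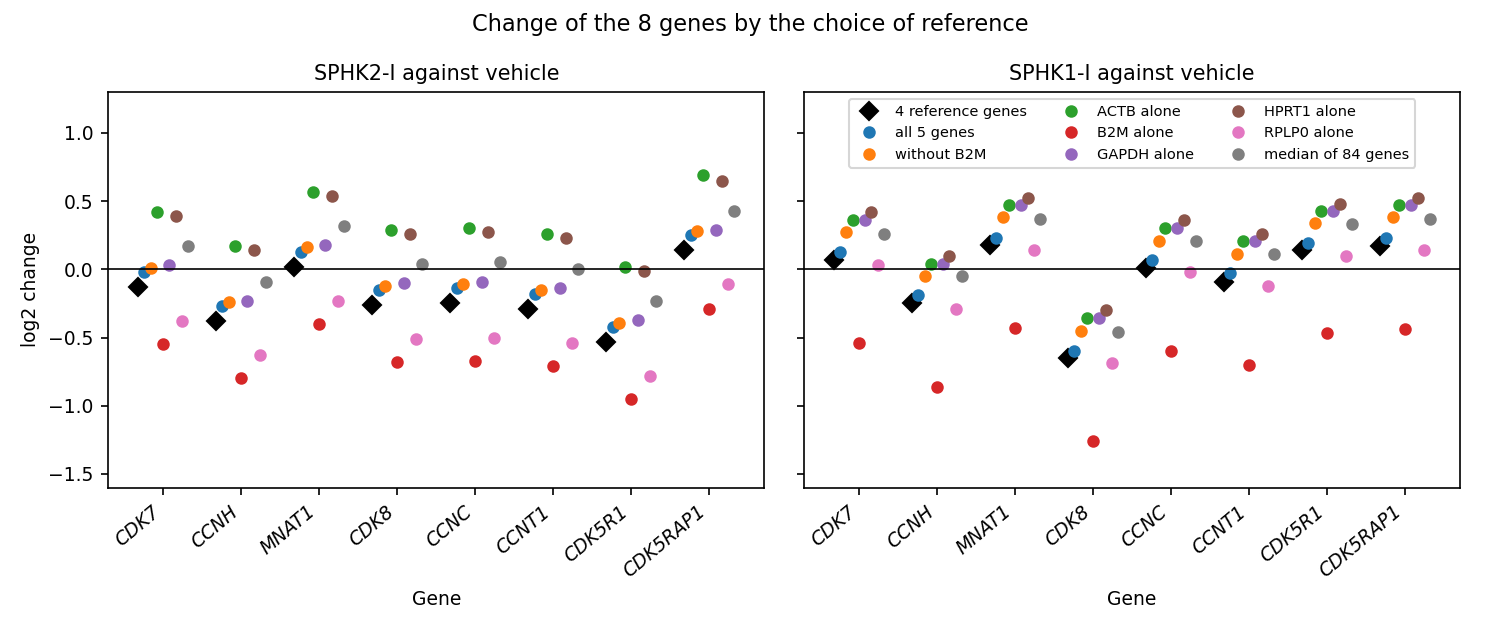
Change (y axis, log2) of each of the 8 genes (x axis) with SPHK2-I and with SPHK1-I against vehicle, with diamonds for the 4 reference genes of the deposited ΔCt values and circles for 8 other references. The references shift all genes together, and with SPHK2-I each of the 8 genes has values on both sides of 0.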

How the data were processed

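A SYBR qPCR array for 84 cell cycle genes was run on 6 HMC-1.2 samples, 2 for each of SPHK2-I, SPHK1-I and vehicle. The authors' table of average Ct is on a log2 scale, and their ΔCt table, also log2, subtracts the average of B2M, GAPDH, HPRT1 and RPLP0, as identified from the values. The authors' table of relative levels holds the ratio 2 to the power of minus ΔCt and was used only to check the ΔCt values. The deposited fold tables hold the authors' own comparisons and were not used here. Ct values had been processed with the array maker's web tool (version not given in the sources used here).

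Members were matched by symbol, and RefSeq promoters (GRCh38.p14) by the gene identifier found through each array gene's RefSeq accession. The members and lists were chosen with earlier results of these data known. Percentages of the reference level are 100 times 2 to the power of minus ΔCt. For changes in −ΔCt, limma 3.58.1 (R 4.3.3) was fitted to all 6 samples (1 mean per group and no replicate block). Moderation used a prior SD of 0.191 with 4.33 degrees of freedom beside 3 residual ones. Benjamini-Hochberg adjustment ran over all 84 genes, with calls made below 0.05. Same-numbered samples did not deviate together (correlations of −0.04, −0.11 and −0.26 for the 3 pairs of groups), and the numbers were therefore not used for pairing. All 8 genes are named, with the nearest profile outside them and up to 3 called genes of each list with the largest change. CDK4 and CCNG1 were added to complete their lists, and CCND1 and CCND2 because they passed under other references. The number of samples limits the precision, and Ct values at 35 are bounds. Alternatives were other references, late genes left out, each sample left out, a replicate block, only the groups compared, trend and robust settings, and the methods' t-test. Leaving out Ct values of 35 was chosen after seeing the data.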

Additional observations from a re-analysis of the deposited data

How the results depend on the processing

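Of 498 changes of single genes recomputed under 21 alternatives, 398 kept their direction and their side of the threshold, 38 passed the threshold in the same direction and 62 turned, 48 of these under another reference. No cause was tested. With other references the median change of the 84 genes lay between −0.67 and 0.30 with SPHK2-I (−0.25 with the 4 reference genes) and between −0.95 and 0.00 with SPHK1-I (−0.35).

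For SPHK2-I against vehicle, ACTB alone gave CDK7 0.42, CCNH 0.17, CDK8 0.29, CCNC 0.30, CCNT1 0.26 and CDK5R1 0.02. HPRT1 alone gave CDK7 0.39, CCNH 0.14, CDK8 0.26, CCNC 0.27 and CCNT1 0.23. The median gene gave CDK7 0.17, CDK8 0.04, CCNC 0.05 and CCNT1 0.00. GAPDH alone gave CDK7 0.03, the reference without B2M CDK7 0.01, B2M alone MNAT1 −0.40 and CDK5RAP1 −0.29, and RPLP0 alone MNAT1 −0.23 and CDK5RAP1 −0.11. For SPHK1-I against vehicle, B2M alone gave CDK7 −0.54, MNAT1 −0.43, CCNC −0.60, CDK5R1 −0.47 and CDK5RAP1 −0.44, and RPLP0 alone gave CCNC −0.02. CCNH turned to 0.04 with ACTB or GAPDH alone and 0.10 with HPRT1 alone, and CCNT1 to 0.11 without B2M or with the median gene, 0.21 with ACTB or GAPDH alone and 0.26 with HPRT1 alone. For SPHK2-I minus SPHK1-I, ACTB alone gave CDK7 0.06, CCNH 0.13, MNAT1 0.10, CCNT1 0.05 and CDK5RAP1 0.22, B2M alone CCNH 0.06, MNAT1 0.03 and CDK5RAP1 0.15, and HPRT1 alone CCNH 0.04, MNAT1 0.01 and CDK5RAP1 0.13. CDK5RAP1 was also 0.01 with all 5 housekeeping genes and 0.06 with the median gene. With Ct values of 35 left out, CDK5R1 turned to −0.53 with SPHK1-I and to 0.32 for the difference.

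No member was called with the 4 reference genes. With B2M alone, 6 were lower with SPHK2-I and 5 with SPHK1-I, and 1 (CDK8) was higher in the difference, with 67.9%, 83.3% and 42.9% of the 84 genes called. HPRT1 alone called 2 as higher with SPHK2-I (MNAT1 and CDK5RAP1, 40.5% of the 84), and ACTB alone 1 as higher in the difference (CDK8, 47.6%). With only the groups compared 4 were lower with SPHK2-I (50.0% of the 84 lower). By the methods' t-test without adjustment 3 were lower with SPHK2-I (39.3% of the 84) and 1 in the difference (10.7%). The median SD of group means with B2M alone was 0.39 for the 8 genes and 0.73 for the phase-linked genes.

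Leaving out 1 sample at a time, members called ranged from 0 to 4 lower with SPHK2-I, from 0 to 2 lower and 0 to 1 higher with SPHK1-I, and from 0 to 3 lower and 0 to 1 higher in the difference. All of those calls came without SPHK1-I sample 1 or 2, when limma gave every gene the same spread, an SD of 0.118, and called 50.0% to 76.2% of the 84 genes. Without SPHK1-I sample 1 these were CDK8 and CCNT1 as lower and CDK5R1, at the Ct limit in sample 2, as higher with SPHK1-I, and without SPHK1-I sample 2 CCNH and CDK5R1 as lower. In either case CCNH, CDK8, CCNT1 and CDK5R1 were lower with SPHK2-I. Without a SPHK2-I sample no gene of the 84 was called for SPHK2-I or the difference, and without a vehicle sample none in any comparison. The changes ranged with SPHK1-I from −0.45 to −0.05 for CCNH, −0.13 to 0.15 for CCNC, −0.41 to 0.23 for CCNT1, −0.53 to 0.80 for CDK5R1 and −0.10 to 0.45 for CDK5RAP1, with SPHK2-I from −0.01 to 0.06 for MNAT1 and −0.14 to 0.41 for CDK5RAP1, and in the difference from −0.33 to 0.07 for CCNH, −0.52 to 0.12 for CCNT1, −1.33 to 0.00 for CDK5R1 and −0.08 to 0.87 for CDK8.

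With a replicate block, 0 members were called in each comparison. Over all 84 genes the block called 20 lower and 6 higher with SPHK2-I, 27 and 4 with SPHK1-I, and 8 and 6 in the difference, against 20 and 4, 26 and 4, and 13 and 13 without it. Among other settings whose counts over all genes moved by more than 1.5 times, the reference without B2M called 13 genes with SPHK1-I, GAPDH alone 8 and RPLP0 alone 1, against 30. RPLP0 alone called 3 genes in the difference and ACTB alone 40, against 26.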
